A study of Homo sapiens with 6 samples.

Results

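The genes read here are 9 parts of the interferon signalling machinery in cells of 2 human pancreatic ductal adenocarcinoma (PDAC) lines: the receptor chains IFNAR1, IFNAR2 and IFNGR1, the kinase JAK1, the transcription factor STAT2 and the interferon regulatory factors IRF1, IRF3, IRF7 and IRF9. They were chosen by name and matched to the table by symbol, and 9 of 9 were found among 41768 genes. All 9 were also among the 12592 genes tested, which averaged 1 FPKM or more over the 6 libraries (FPKM is fragments per kilobase of a gene's length, scaled to a library of 1 M fragments, with M for mega). The libraries form 4 groups: PANC-1 siALDOA (2 libraries), PANC-1 NC (1 library), 90 siALDOA (2 libraries) and 90 NC (1 library). PANC-1 is an established PDAC line of ductal origin. The sources used here do not say what the line named 90 or the letters NC stand for, how long the cells were treated, or whether the numbers 1 and 2 mark different siRNAs. The label siALDOA was taken to mean small interfering RNA that targets ALDOA, the gene of the glycolytic enzyme aldolase A. ALDOA was at 501 and 462 FPKM in the siALDOA libraries of PANC-1 against 906 in its NC library, and at 262 and 318 FPKM in the siALDOA libraries of 90 against 726 in NC. Separate cultures are not named in any label, so the spread that the p-values are set against is that of these libraries and may be technical.

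Type I interferons bind a receptor made of the IFNAR1 and IFNAR2 chains, and interferon gamma binds one made of IFNGR1 and IFNGR2. The kinases JAK1, TYK2 and JAK2 sit on these chains and phosphorylate STAT proteins. STAT2 and IRF9 are parts of the trimer ISGF3, which binds the interferon-stimulated response element of antiviral genes. Gamma-activated sites are bound by STAT dimers instead. IRF3 and IRF7 are switched on by sensors of foreign nucleic acid and turn on the interferon genes themselves, and IRF7, IRF9, IRF1 and STAT2 are themselves induced by interferon.

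Depth was 21.8 and 18.7 M fragments in the siALDOA libraries of PANC-1 and 20.6 M in NC, and 19.5 and 19.0 M in the siALDOA libraries of 90 and 17.8 M in NC. The 54 member values rest on 139 to 3987 fragments with a median of 551. Counting error alone is then 8.48% of the value at the lowest and 1.58% at the highest. The cells were checked against markers. The epithelial genes KRT8, KRT18, KRT19, KRT7, EPCAM and CDH1 summed to 3395 to 4360 FPKM in PANC-1 and 4852 to 6643 FPKM in 90, with KRT7, CDH1, EPCAM and KRT19 lower in PANC-1. All 10 leukocyte markers were under 1 FPKM in all 6 libraries, their sums ran from 0.891 to 1.77 FPKM in PANC-1 and from 0.279 to 0.829 in 90, and the T and B cell genes CD3D and MS4A1 were listed at 0 throughout. Acinar and islet markers were all under 1 FPKM. Of 4 endothelial markers, CDH5 was listed at 0 in PANC-1 and at 3.28, 3.0 and 3.24 FPKM in siALDOA 1, siALDOA 2 and NC of 90, and the other 3 were under 1 FPKM. Of 7 fibroblast markers, 5 were under 1 FPKM, with COL1A1 higher and ACTA2 lower in PANC-1. The part of these markers in the results was not tested. In such bulk RNA a lower level in every cell and a smaller share of cells with the transcript cannot be told apart.

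The members differ in length, GC content and neighbours, which bear on how their fragments were counted. Coordinates are those of GENCODE v29 on GRCh38. IFNAR2 (chr21:33229901-33265675) and IFNAR1 (chr21:33324477-33359862) both lie on the plus strand of chromosome 21, with IL10RB between them. IFNGR1 lies at chr6:137197484-137219449 on the minus strand and JAK1 at chr1:64833229-64966504 on the minus strand. STAT2 (chr12:56341597-56360155), IRF1 (chr5:132481609-132490798), IRF3 (chr19:49659569-49665875) and IRF7 (chr11:612553-615999) are minus-strand genes, and IRF9 lies at chr14:24161053-24166565 on the plus strand. The gene lengths behind the FPKM values ran from 1678 bases for IRF9 to 6095 bases for IFNAR1. IFNGR1 (40.2% GC) and IFNAR1 (42.3%) were the members poorest in GC, and IRF7 (66.8%) and IRF3 (59.0%) the richest. On the opposite strand IRF3 overlaps BCL2L12, IRF1 overlaps C5orf56 and JAK1 overlaps RAVER2. The sources used here do not say whether strand was used in counting, so reads from these pairs may not be told apart. On the same strand IRF9 overlaps the protein-coding gene AL136295.5 and IFNAR2 the protein-coding AP000295.1, neither of them listed by that symbol. STAT2 overlaps RNU7-40P and IFNAR1 the pseudogene USF1P1, also on the same strand. Strand does not separate these pairs, and the part of the overlaps in the counts was not tested.

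RefSeq promoter windows of 300 bases (250 before to 50 after a start, GRCh38.p14) were matched for 6 of the 9 members, with 10 windows in all. They were searched on both strands for the core of the interferon-stimulated response element (GAAA, any 2 bases, GAAA) and for TTCNNNGAA, the gamma-activated site. The first was in 0 of the 10 windows and in 3.57% of 35116 RefSeq promoters. TTCNNNGAA was in 2 of the 10 windows, those of IRF1 and IRF9, and in 7.66% of all promoters. The window of STAT2, also lower in PANC-1, held neither motif. The 2 promoters with a match are shown, with the match in capitals, and each sequence reads 5′ to 3′ on the strand of its gene.
IRF1, chr5:132490724-132491023, minus strand: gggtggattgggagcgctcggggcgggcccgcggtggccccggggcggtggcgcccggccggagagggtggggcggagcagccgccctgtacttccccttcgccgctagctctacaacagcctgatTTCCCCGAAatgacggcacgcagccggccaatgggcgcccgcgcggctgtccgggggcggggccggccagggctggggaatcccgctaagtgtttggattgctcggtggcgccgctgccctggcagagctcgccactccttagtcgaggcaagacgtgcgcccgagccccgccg
IRF9, chr14:24161015-24161314, plus strand: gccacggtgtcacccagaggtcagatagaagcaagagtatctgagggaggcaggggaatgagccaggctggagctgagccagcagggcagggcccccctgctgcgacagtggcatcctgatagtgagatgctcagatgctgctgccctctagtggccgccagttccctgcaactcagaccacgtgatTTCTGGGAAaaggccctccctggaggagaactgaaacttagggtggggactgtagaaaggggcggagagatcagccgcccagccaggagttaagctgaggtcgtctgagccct
The match in IRF1, TTCCCCGAA, spans positions -124 to -116 from the start, and that in IRF9, TTCTGGGAA, positions -63 to -55. A match is a run of letters, not a shown site of binding. IFNAR2, IRF3 and IRF7 were not searched.

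The first comparison sets PANC-1 against 90 over all 6 libraries. Of the 9 members, the interferon-induced factors IRF9, IRF7, IRF1 and STAT2 were lower in PANC-1 and JAK1 was higher. The differences and their standard errors are in log2(FPKM + 1), from a limma fit with terms for line and siALDOA, and calls were made at 0.05 on p-values adjusted by Benjamini-Hochberg over all genes. Across all 12592 genes, 18.4% were called lower in PANC-1 and 20.4% higher, so 38.8% were called in either direction; 47.3% had an unadjusted p under 0.05, as did 5 of 9 members. Among the members 4 of 9 were called lower and 1 of 9 higher. The median difference was -0.92 for the members and 0.13 for all genes. That all-gene median was 0.02 after median-ratio scaling, where the members' median was -1.04.

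**Figure D1:**
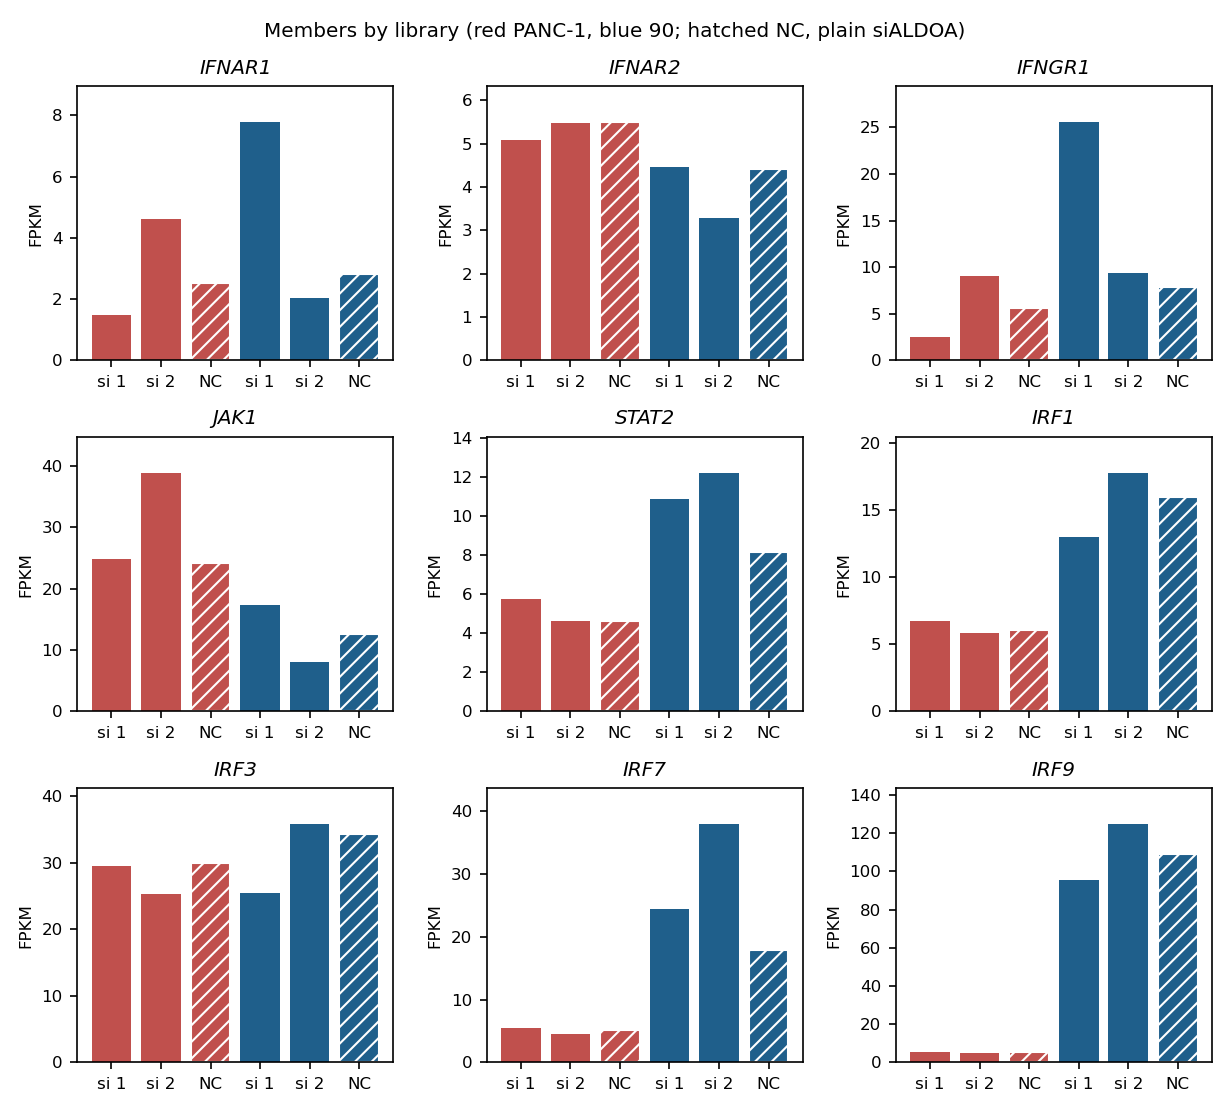
FPKM (vertical axis, linear, from 0) of the 9 members in each library, 1 panel a gene; si 1, si 2 and NC of PANC-1 stand left of those of 90, and each bar is 1 library. IRF9 stands at 4.90 to 5.59 FPKM in PANC-1 and at 95.3 to 125 FPKM in 90, while IFNAR1 and IFNGR1 are highest in siALDOA 1 of 90.

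IRF9, the DNA-binding subunit of ISGF3, showed the widest gap of the members. It was at 5.59, 4.90 and 5.49 FPKM in siALDOA 1, siALDOA 2 and NC of PANC-1, and at 95.3, 125 and 109 FPKM in the same libraries of 90. The ranges lie far apart, and no library of PANC-1 comes near one of 90. IRF9 averaged 5.33 ± 0.374 FPKM in PANC-1 and 109.8 ± 14.8 FPKM in 90 (SD, n = 3 each). The difference was -4.12 (SE 0.156, limma adjusted p = 1.79e-04, 95% interval -4.52 to -3.72). It passed in 18 of 18 alternatives, with values from -4.35 to -4.01.

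IRF7, which drives the later wave of interferon alpha genes, was at 5.54, 4.55 and 5.15 FPKM in siALDOA 1, siALDOA 2 and NC of PANC-1 and at 24.5, 38 and 18.0 FPKM in 90. All 3 PANC-1 values lie below all 3 values of 90, and within 90 the NC library is the lowest. The difference was -2.13 (SE 0.267, limma adjusted p = 0.00328), and it passed in 18 of 18 alternatives. IRF1, a factor of interferon gamma responses and of major histocompatibility genes, was at 6.74, 5.86 and 6.10 FPKM in PANC-1 and at 13.0, 17.8 and 15.9 FPKM in 90, in the same order of libraries. Again the lines do not overlap. The difference was -1.19 (SE 0.181, limma adjusted p = 0.00620). The call was lost without NC of 90 (adjusted p = 0.0661) and without NC of PANC-1 (0.0578), out of a range of 7.83e-05 to 0.0661 over the 18 alternatives.

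STAT2, the STAT of the ISGF3 trimer that carries its transactivation domain, was at 5.75, 4.63 and 4.62 FPKM in siALDOA 1, siALDOA 2 and NC of PANC-1 and at 10.9, 12.2 and 8.19 FPKM in 90. The lines do not overlap, although the gap between PANC-1 siALDOA 1 and 90 NC is narrow beside the spread within 90. The difference was -0.92 (SE 0.177, limma adjusted p = 0.0134). Leaving out any of 4 libraries ended the call, namely NC of 90 (adjusted p = 0.0751), siALDOA 2 of 90 (0.0527), NC of PANC-1 (0.0655) or siALDOA 2 of PANC-1 (0.0569), and so did quantile normalization (0.0612).

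JAK1, the kinase shared by the receptors of type I, II and III interferons, ran the other way. It was at 24.8, 38.9 and 24.1 FPKM in siALDOA 1, siALDOA 2 and NC of PANC-1 and at 17.4, 8.10 and 12.6 FPKM in 90. Every PANC-1 library lies above every 90 library, but siALDOA 2 stands apart at the top in PANC-1 and is the lowest of 3 spread values in 90. The difference was 1.17 (SE 0.342, limma adjusted p = 0.0489, 95% interval 0.29 to 2.04), just inside the threshold. The call held in 8 of 18 alternatives, with adjusted p from 2.13e-05 to 0.141 and values from 0.84 to 1.5. Among single libraries it was lost without NC of 90 (0.139), siALDOA 2 of 90 (0.0799), NC of PANC-1 (0.138), siALDOA 1 of PANC-1 (0.0689) or siALDOA 2 of PANC-1 (0.141).

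The remaining 4 members did not pass. IFNGR1, the ligand-binding chain of the interferon gamma receptor, was at 2.56, 9.04 and 5.67 FPKM in siALDOA 1, siALDOA 2 and NC of PANC-1 and at 25.6, 9.38 and 7.85 FPKM in 90. The lines overlap, since siALDOA 2 of PANC-1 is above NC of 90, and the difference was -1.12 (SE 0.584, limma adjusted p = 0.203). After a correction of each library for its trend with GC content it was -1.35 (SE 0.135, limma adjusted p = 0.00101), within a range of 0.00101 to 0.511 over the 18 alternatives. IFNAR1, the chain that anchors TYK2, was at 1.48, 4.62 and 2.54 FPKM in PANC-1 and at 7.79, 2.03 and 2.82 FPKM in 90, with wholly overlapping ranges. Its difference of -0.35 (SE 0.529, limma adjusted p = 0.671, 95% interval -1.71 to 1.01) has an interval that covers both directions.

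IFNAR2, the high-affinity chain that carries JAK1, was at 5.08, 5.49 and 5.51 FPKM in siALDOA 1, siALDOA 2 and NC of PANC-1 and at 4.46, 3.29 and 4.42 FPKM in 90. The ranges do not overlap but lie close, and the difference of 0.34 did not pass (SE 0.180, limma adjusted p = 0.213, 95% interval -0.13 to 0.80). IRF3, the factor made in most cells without interferon, was at 29.5, 25.2 and 29.9 FPKM in PANC-1 and at 25.4, 35.8 and 34.3 FPKM in 90. The values overlap, and the difference of -0.16 (SE 0.175, limma adjusted p = 0.546) has a 95% interval of -0.61 to 0.29. By range alone, 4 members had every PANC-1 library below every 90 library, as did 25.1% of all genes tested, 2 had every PANC-1 library above, as did 29% of genes, and 3 overlapped.

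**Figure D2:**
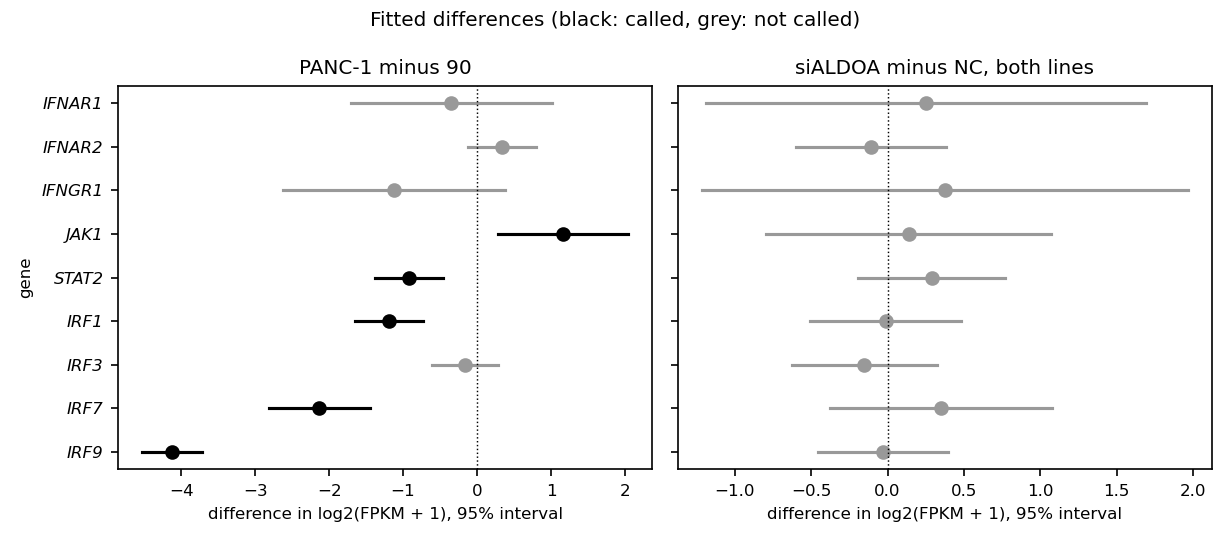
Fitted difference in log2(FPKM + 1) (horizontal axis) of each member with its 95% interval, for PANC-1 minus 90 on the left and siALDOA minus NC over both lines on the right; black marks genes called by limma. IRF9, IRF7, IRF1 and STAT2 lie below 0 and JAK1 above 0 on the left, and all 9 intervals cover 0 on the right.

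The order of the members by level differed between the lines. FPKM is per length, but these levels are not corrected for GC content, and the libraries differed in their trend with it. The ranks of the GC-poor IFNAR1 and IFNGR1 are therefore less sure. In PANC-1 JAK1 (29.2 ± 8.33 FPKM) and IRF3 (28.2 ± 2.58 FPKM) led (SD, n = 3 each), with overlapping values. A step separated them from IRF1, IFNGR1, IFNAR2, IRF9, IRF7 and STAT2, which averaged 6.23, 5.76, 5.36, 5.33, 5.08 and 5.0 FPKM and overlapped each neighbour. IFNAR1 came last at 2.88 ± 1.60 FPKM, with a range just under that of STAT2. In 90 IRF9 stood alone at the top, and IRF3 (31.8 ± 5.64 FPKM) and IRF7 (26.8 ± 10.2 FPKM) followed with overlapping values. Then came IRF1, IFNGR1, JAK1 and STAT2, at means of 15.6, 14.3, 12.7 and 10.4 FPKM, each overlapping its neighbour. IFNAR1 (4.22 FPKM) and IFNAR2 (4.06 FPKM) were lowest and did not differ beyond their spread.

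Ratios between partner genes, picked after the values were seen, describe the same shift within each library. IRF9 over STAT2, partners in ISGF3, was 0.973, 1.06 and 1.19 in siALDOA 1, siALDOA 2 and NC of PANC-1 and 8.77, 10.2 and 13.3 in 90. IRF3 over IRF7 was 5.32, 5.54 and 5.80 in PANC-1 and 1.04, 0.943 and 1.91 in 90. Neither ratio overlaps between the lines, and both have an exact permutation p = 0.1 (two-sided, n = 3 each), the smallest that 3 against 3 libraries allow. The test takes the NC and siALDOA libraries of a line as alike, and it adds no support to ratios picked from the same values. IFNAR2 over IFNAR1 was 3.43, 1.19 and 2.16 in PANC-1 and 0.573, 1.63 and 1.56 in 90, with overlap (exact permutation p = 0.3, n = 3 each).

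The second comparison asks whether the members changed with siALDOA. None passed: limma called 0 of 9 members and 0 of 12592 genes (0%) over both lines, and 0 members and 43 genes (0.341%) had an unadjusted p under 0.05. limma-voom on fragments rebuilt from the FPKM values also called 0 genes. The median of the members was 0.14, against 0.01 for all genes. ALDOA itself, at -1.12 (SE 0.160, unadjusted p = 9.07e-04), did not pass either (limma adjusted p = 1), although it was lower in 4 of 4 siALDOA libraries.

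STAT2 was the member with the smallest p. It was at 5.75 and 4.63 FPKM in siALDOA 1 and 2 against 4.62 in NC of PANC-1, and at 10.9 and 12.2 FPKM against 8.19 in NC of 90. All 4 siALDOA libraries lie above the NC library of their line, as they do for 3.39% of genes, but siALDOA 2 of PANC-1 does so by a margin that vanishes at 3 digits (ratio 1.0). For 0 members did all 4 lie below NC, as they do for 5.82% of genes. The STAT2 difference over both lines was 0.29 (SE 0.188, unadjusted p = 0.183, limma adjusted p = 1, 95% interval -0.19 to 0.77).

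IRF7 had the largest siALDOA difference of the members in 90 relative to its error, and it did not pass. It was at 24.5 and 38 FPKM in siALDOA 1 and 2 of 90 against 18.0 in NC, ratios of 1.36 and 2.11, and at 5.54 and 4.55 FPKM against 5.15 in PANC-1, ratios of 1.08 and 0.884. These values rest on 1957 and 2965 fragments against 1310 in 90, and on 496 and 350 against 436 in PANC-1. Within 90 the difference was 0.73 (SE 0.386, unadjusted p = 0.129, limma adjusted p = 1), within PANC-1 it was -0.03 (SE 0.386), and the difference between these effects was -0.76 (SE 0.546, unadjusted p = 0.234, limma adjusted p = 1). Within 90 limma called 0 of 12592 genes (0%) and 33 had an unadjusted p under 0.05 (0.262%); within PANC-1 it called 0 (0%) with 21 (0.167%), and for the difference between the lines 0 (0%) with 24 (0.191%). limma-voom also called 0 in each of these. IRF7, STAT2 and IFNGR1 lie above NC in both siALDOA libraries of 90, as 20.6% of genes do.

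IRF9 and IRF1, also lower in PANC-1, had no siALDOA difference past the test. IRF9 was at 95.3 and 125 FPKM in siALDOA 1 and 2 of 90 against 109 in NC, and at 5.59 and 4.90 FPKM against 5.49 in PANC-1, so that siALDOA libraries lie on both sides of NC in each line. The difference over both lines was -0.03 (SE 0.165, 95% interval -0.45 to 0.39). IRF1 likewise lay on both sides of NC, at 13.0 and 17.8 FPKM against 15.9 in 90 and at 6.74 and 5.86 FPKM against 6.10 in PANC-1 (difference -0.01, SE 0.192). IRF3 had a difference of -0.15 (SE 0.185) and IFNAR2 of -0.11 (SE 0.191), and their intervals ran from -0.63 to 0.32 and from -0.60 to 0.38.

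The GC-poor receptor chains IFNAR1 and IFNGR1 varied most between siALDOA libraries. IFNAR1 was at 7.79 and 2.03 FPKM in siALDOA 1 and 2 of 90 against 2.82 in NC, and at 1.48 and 4.62 FPKM against 2.54 in PANC-1. IFNGR1 was at 25.6 and 9.38 FPKM against 7.85 in 90, and at 2.56 and 9.04 FPKM against 5.67 in PANC-1. Both were highest in siALDOA 1 of 90 and, within PANC-1, in siALDOA 2. The differences over both lines were 0.25 (SE 0.561) for IFNAR1 and 0.37 (SE 0.619) for IFNGR1, with the 2 largest standard errors of the members, and JAK1 followed with 0.14 (SE 0.362).

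Other genes of like GC content moved in the same libraries. In the second eighth of genes by GC (39.6% to 42.7%), which holds both receptor chains, the median difference from NC was 0.80 and -0.14 in siALDOA 1 and 2 of 90 and -0.53 and 0.47 in those of PANC-1. IFNAR1 differed from NC by 1.20, -0.34, -0.52 and 0.67 in the same order, and IFNGR1 by 1.59, 0.23, -0.91 and 0.59. After correction for the GC trend the differences were 0.44, -0.12, 0.01 and 0.24 for IFNAR1 and 0.47, 0.30, -0.09 and 0.07 for IFNGR1. IRF7 is in the eighth richest in GC (61.2% to 86.4%), whose medians were -0.27, 0.11, 0.10 and -0.21. Its differences were 0.43, 1.04, 0.09 and -0.15 as deposited, and 0.68, 0.94, -0.00 and 0.11 after the correction.

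**Figure D3:**
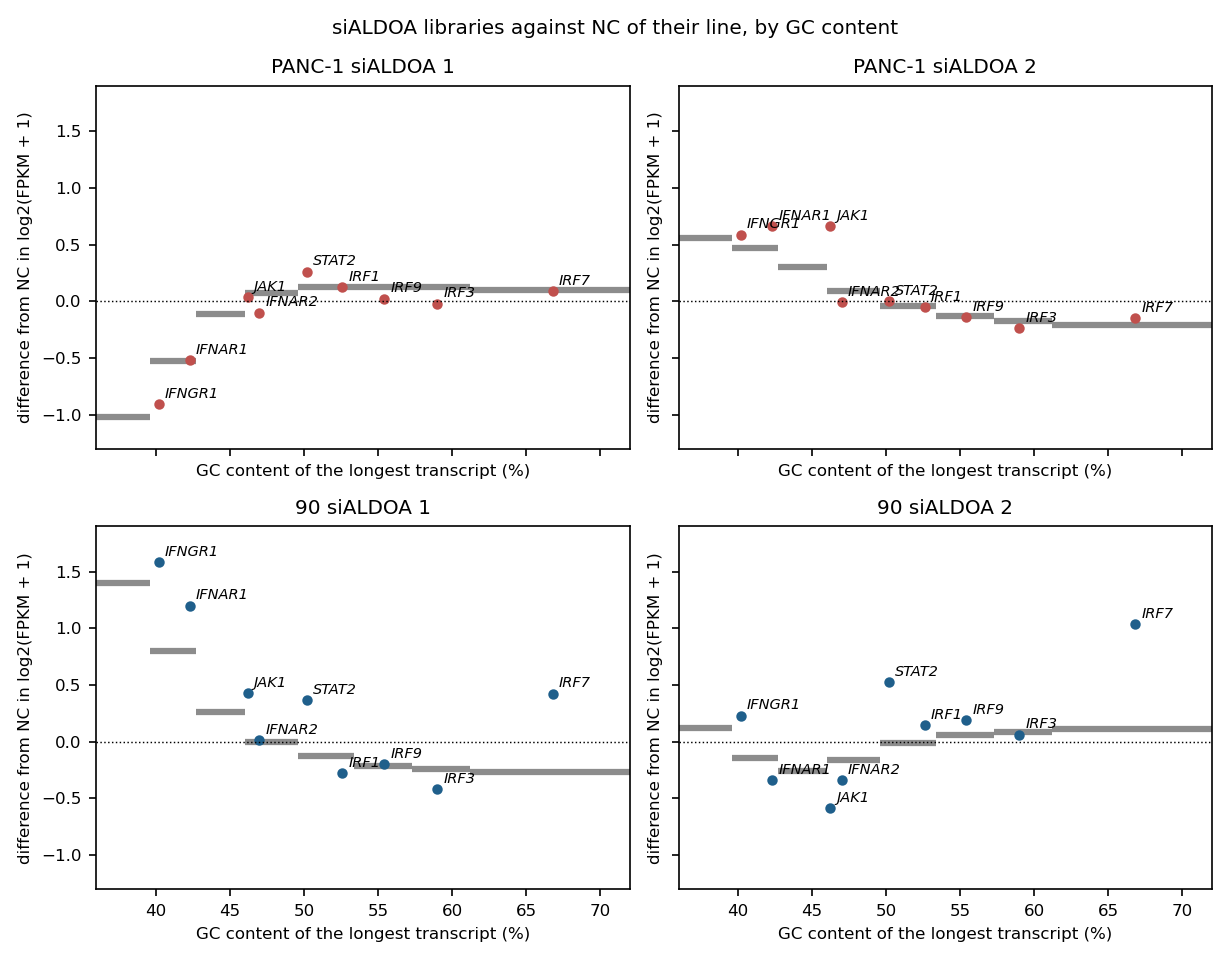
Difference from NC of the same line in log2(FPKM + 1) (vertical axis) against GC content of the longest transcript in percent (horizontal axis), 1 panel for each siALDOA library; points are members and grey bars are medians of eighths of the tested genes. IFNAR1 and IFNGR1 lie on the side of 0 of their grey bar in siALDOA 1 of both lines and siALDOA 2 of PANC-1, and IRF7 lies above its bar in both libraries of 90.

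The rest of the pathway gives the setting in which the line difference stands. Most ligands were near the limit of detection. Of 21 interferon genes 0 were tested, 13 were listed at 0 in all 6 libraries and 17 were under 1 FPKM throughout, where 3 fragments on a gene of 1 kb come to 0.137 to 0.169 FPKM. IFNB1, the first type I interferon made after infection, was listed at 0, 0 and 0.0577 FPKM in siALDOA 1, siALDOA 2 and NC of PANC-1 and at 0.244, 0.188 and 0.134 FPKM in 90. IFNE, an epithelial type I interferon, had the highest single value, 3.65 FPKM (105 fragments) in siALDOA 1 of 90, against 0.153 in NC. It was at 0.499 FPKM in siALDOA 2 of 90. Its GC content of 35.5% is in the range of the eighth poorest in GC (25% to 39.6%). The median difference of that eighth from NC was 1.40 in siALDOA 1 of 90. The part of GC content in the IFNE value was not tested. The lambda interferon IFNL1 was at 1.39, 0.561 and 0.849 FPKM in PANC-1 and at 0.599, 1.29 and 0.131 FPKM in 90. In the same order IFNL2 was at 0.811, 0.582 and 1.19 FPKM in PANC-1 and at 0.210, 0.0716 and 0 FPKM in 90. Its values rest on 13, 8 and 18 fragments against 3, 1 and 0. IFNL3 was at 0.304, 0.708 and 1.13 FPKM in PANC-1 and at 0.170, 0.349 and 0 FPKM in 90. The IFNA genes and the IFNL genes have close copies within their groups, among which shared reads may be split.

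The counts of calls in the lists here and below stand beside 18.4% of all genes tested called lower in PANC-1 and 20.4% called higher. Of the other receptor chains and kinases 4 of 6 were tested, 1 was lower in PANC-1 and 0 were higher, with a median of -0.36. That gene was IFNLR1, the chain specific to lambda interferons, at 0.411, 0.444 and 0.425 FPKM in PANC-1 and 3.62, 4.35 and 3.66 FPKM in 90 (difference -1.77, SE 0.164, limma adjusted p = 0.00131). It passed the filter only through 90. IFNGR2, TYK2 and IL10RB did not pass, at differences of 0.44, -0.45 and -0.27. JAK2 and JAK3 had means under 1 FPKM and were not tested.

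Among the other STATs 5 of 6 were tested, 3 were higher in PANC-1 and 1 was lower, with a median of 1.70. STAT5A, STAT5B and STAT3, which serve growth factor and cytokine receptors, were higher. STAT5A was at 21.7, 15.6 and 16.8 FPKM in siALDOA 1, siALDOA 2 and NC of PANC-1 and at 1.48, 1.80 and 1.5 FPKM in 90 (difference 2.87, SE 0.194, limma adjusted p = 5.25e-04). STAT3 was at 82.6, 72.1 and 62.4 FPKM in PANC-1 and at 20.5, 23.4 and 20.8 FPKM in 90 (1.70, SE 0.135, adjusted p = 8.41e-04). STAT6, the STAT of interleukin 4, was lower (-1.15, SE 0.165, adjusted p = 0.00515), a call lost without NC of 90 or NC of PANC-1 (highest adjusted p = 0.0552).

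Of 8 other IRF and IRF2-binding genes 7 were tested, 4 were lower in PANC-1 and 1 was higher, with a median of -0.94. IRF8, best known from myeloid and B cells, was at 0.189, 0.10 and 0.0546 FPKM in siALDOA 1, siALDOA 2 and NC of PANC-1 and at 3.53, 3.18 and 3.15 FPKM in 90 (difference -1.94, SE 0.156, limma adjusted p = 8.65e-04). The leukocyte markers were under 1 FPKM in both lines, and the source of the IRF8 transcripts was not tested. IRF2BP1, a corepressor that binds IRF2, was also lower (-1.05, SE 0.244, adjusted p = 0.0246), a call lost without either NC library or without siALDOA 2 of either line (highest adjusted p = 0.127). IRF8 and IRF5 were under 1 FPKM in every PANC-1 library, so they passed the filter through 90.

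Inhibitors went in both directions, with 3 of 12 tested genes higher in PANC-1, 3 lower and a median of 0.30. These counts are near the shares over all genes tested, 20.4% higher and 18.4% lower. USP18, which blocks signalling at IFNAR2 and is itself a target of interferon, was at 3.05, 2.20 and 2.80 FPKM in siALDOA 1, siALDOA 2 and NC of PANC-1 and at 48.9, 63.9 and 38.3 FPKM in 90 (difference -3.78, SE 0.224, limma adjusted p = 3.70e-04). The phosphatase gene PTPN6 was lower as well (-2.47, SE 0.181). SOCS2, a suppressor of growth hormone and cytokine signalling, was higher (2.18, SE 0.259, adjusted p = 0.00278). Of the 8 tested activators of IRF3 and IRF7, 2 were lower, 1 was higher and the median was -0.09. That is near the 38.8% of all genes tested that were called in either direction. IKBKE, a kinase of IRF3 and IRF7, was at 2.24, 1.38 and 1.94 FPKM in PANC-1 and at 19.3, 25.5 and 23.5 FPKM in 90 (-3.06, SE 0.208, adjusted p = 5.28e-04). TMEM173, the older symbol of STING, was lower (-2.28, SE 0.221, adjusted p = 0.00147). MB21D1, the older symbol of the DNA sensor cGAS upstream of STING, was higher (1.02, SE 0.166, adjusted p = 0.00770), a call lost without either NC library (highest adjusted p = 0.0532).

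The targets of the pathway were lower in PANC-1. Of 25 tested interferon targets 20 were lower, 0 were higher and the median was -3.91, and 20 to 23 were called lower in each of the 18 alternatives. IFI27 was at 9.73, 2.34 and 1.73 FPKM in siALDOA 1, siALDOA 2 and NC of PANC-1 and at 2393, 3942 and 2328 FPKM in 90 (difference -9.25, SE 0.506, limma adjusted p = 3.03e-04). BST2, which tethers budding virus, was lower by the same test (-7.67, SE 0.286), as was IFI6 (-6.17, SE 0.347). Of these targets 9 were under 1 FPKM in every PANC-1 library, 7 of them called, and so were tested only through their level in 90. USP18 is also in the list of inhibitors. MX2 was the tested target with a difference above 0, at 22.4, 18.4 and 16.8 FPKM against 22.3, 22.5 and 12.2 in 90 (0.05, SE 0.182, adjusted p = 0.856).

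**Figure D4:**
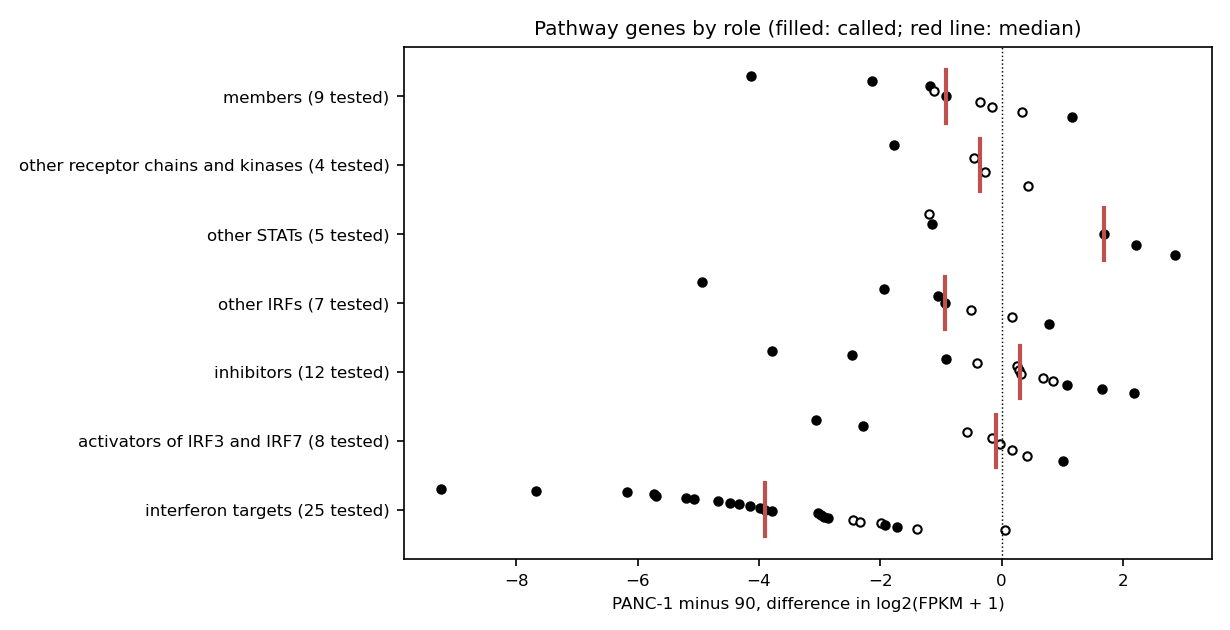
Difference between PANC-1 and 90 in log2(FPKM + 1) (horizontal axis) of the tested genes of each role (rows); filled points were called by limma, and red lines are medians. The members have a median of -0.92 and the interferon targets of -3.91, while the other STATs have a median of 1.70.

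With siALDOA the same lists held 0 called genes. The 25 tested interferon targets had a median difference of 0.55 over both lines, and 2 had an unadjusted p under 0.05. Over both lines 25 of 25 were above 0, as were 52.8% of all genes tested. Within 90 it was 25 of 25 (44.7% of all genes), and within PANC-1 19 of 25 (48.1%). The targets of a line share its 1 NC library and respond to the same signal, so they are not separate observations. The members' median was 0.14. The targets' median difference from NC was 0.82 and 0.79 in siALDOA 1 and 2 of 90 and 0.10 and 0.03 in those of PANC-1. Of the 25 targets 12 are in the 3 eighths poorest in GC, whose medians over all genes were 1.40, 0.80 and 0.26 in siALDOA 1 of 90. After the GC correction the targets' medians were 0.72 and 0.85 in siALDOA 1 and 2 of 90 and 0.38 and -0.04 in those of PANC-1. For the members the median as deposited was 0.37 and 0.15 in 90 and 0.02 and 0.00 in PANC-1. The other lists had medians over both lines of -0.03 for receptor chains and kinases, 0.10 for STATs, 0.06 for IRFs, 0.04 for inhibitors and 0.12 for activators.

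As the measure of likeness, Pearson's r of log2(FPKM + 1) was taken over the 6 libraries, which fall into 2 clusters by line and share 1 table and 1 scaling. For IRF9 the nearest genes were S100A14, PDE2A and PCDH1 (r = 0.9999 each), and 1756 of the tested genes had r above 0.95 with it. IRF7 was nearest to ZSWIM3 (0.9997), C19orf66 (0.9995) and CHKB-CPT1B (0.9986). IFNAR1, which does not follow the lines, was nearest to CNOT6 (0.9987), ALG11 (0.9971) and ZC3H14 (0.9969), with 330 genes above 0.95. IFNAR1 and IFNGR1 had r = 0.88 with each other, and STAT2 and IRF7 had r = 0.98.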

How the data were processed

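Cells of 2 PDAC lines were lysed in Trizol and poly(A) RNA was sequenced, per the labels' protocols; the design text names an Illumina HiSeq. The authors deposited FPKM values, 1 per gene and library. HISAT2, featureCounts and hg38 are named in the submitters' processing notes. Their versions, the use of strand and the gene lengths are not stated there or in other sources used here. In all 41769 rows were read, of which 1 has no gene name; 28 symbols had been turned into dates and 4 rows shared a symbol.

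FPKM of short RNA genes fell on whole multiples of 1 fragment (95.5% to 96.7% of values within 0.001), which gave each library's depth. From these depths a gene length was found at which all 6 values of a gene are whole fragments (lengths up to 30000 bases), for 100% of tested genes and 99.3% to 99.4% of fragments. The rebuilt fragments served only for depth and for an added limma-voom fit.

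Values were analysed as log2(FPKM + 1), which understates differences at low levels. The 12592 genes that averaged 1 FPKM or more (11129 of them mRNA) were tested with limma 3.58.1 in R 4.3.3, two-sided, with an intensity trend. The line difference and the siALDOA effect over both lines came from terms for line and siALDOA; effects within lines came from the 4 group means, which takes the single NC library to be as variable as siALDOA ones. GC content was read from the longest transcript of a gene in GENCODE v29 (90.6% of tested genes), and the GC correction was a lowess of span 0.3. Alternatives were another pseudocount (0.1), no filter, median-ratio scaling, TPM, quantile normalization, GC correction, no trend, each library left out, siALDOA 1 of both lines left out and a replicate block. Added after seeing the data were voom, a crossed block and leaving out siALDOA 1 of 90 with siALDOA 2 of PANC-1. The fits were checked on simulated data.

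The members, the lists and the promoter motifs were chosen with earlier results of these data known. Each list names its called genes of largest change, at most 3. Without a call, it names the 2 of smallest p (printed for members only). IFNGR2, TYK2, IL10RB, IFNB1, IFNE, IFNL1, IFNL2, IFNL3, IRF5 and MX2 are named beyond that rule, after their values were seen. Likeness is given for 3 members. Not every gene meeting that rule is reported here.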

Additional observations from a re-analysis of the deposited data

How the results depend on the processing

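Among the members, IRF9 and IRF7 were called lower in PANC-1 under 18 of 18 alternatives, IRF1 under 16 and STAT2 under 12, and JAK1 was called higher under 8; these 5 kept their direction in each. The 5 called members became 2 to 5 with 1 library left out, and the 4882 called genes became 2422 to 4110; the lowest counts were without NC of 90 (2 members, 2424 genes) and without NC of PANC-1 (2 members, 2422 genes). Fewer libraries enter those fits. Same-numbered libraries of the lines deviated in opposite directions (r = -0.386 for NC, -0.866 for siALDOA 1 and -0.732 for siALDOA 2). Crossed siALDOA libraries deviated together, siALDOA 2 of PANC-1 with siALDOA 1 of 90 (r = 0.892) and siALDOA 1 of PANC-1 with siALDOA 2 of 90 (r = 0.629). These values cannot show whether a number marks the same siRNA in both lines. With the replicate block 3 members (IRF9, IRF7 and IRF1) and 3258 genes were called, and STAT2 (adjusted p = 0.059) and JAK1 (0.104) were not; with siALDOA 1 of 90 crossed with siALDOA 2 of PANC-1, 6 members and 7594 genes. Leaving out siALDOA 1 of 90 and siALDOA 2 of PANC-1 left 5 members called. IFNGR1 was called lower with the GC correction. limma-voom called 4681 genes and 4 members. For siALDOA, 0 genes were called over both lines except 17 without siALDOA 1 of both lines, and within lines 0 except 38 in 90 and 49 in PANC-1 with no filter; the cause was not tested. Uncalled member values changed sign. Without siALDOA 1 of 90 and siALDOA 2 of PANC-1 they were -0.43 (IFNAR1), -0.34 (IFNGR1), -0.27 (JAK1), 0.14 (IRF1), 0.021 (IRF3) and 0.11 (IRF9). Without siALDOA 1 of both lines they were 0.049 (IRF1) and 0.027 (IRF9), as TPM 0.052 and 0.033, and with the GC correction 0.0060 and 0.0080. With 1 library left out they ran from -0.10 to 0.56 (IFNAR1), -0.16 to 0.91 (IFNGR1), -0.078 to 0.39 (JAK1), -0.097 to 0.085 (IRF1), -0.030 to 0.73 (IRF7) and -0.12 to 0.049 (IRF9). The line difference of IFNAR1 ran from -0.75 to 0.13 with 1 library left out and was 0.39 without siALDOA 1 of both lines. Depth limits the members little, at 139 fragments or more; the single NC library of each line limits every siALDOA value.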
